A study of Triticum aestivum with 6 samples.

Results

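The genes described here are those of wheat roots whose matched protein name begins with "Ammonium transporter". The names come with the table of the authors and are best matches to rice proteins, so they are not curated wheat names. The rule found 20 genes among the 83219 listed, of which 7 were matched to AMT1 proteins, 5 to AMT2 proteins and 8 to AMT3 proteins. The expression filter kept 12 of them, with 6 of AMT1, 2 of AMT2 and 4 of AMT3 type, among 53862 genes tested. Seedlings of the wild-type wheat line JW1 grew for 3 days on 2 mM nitrate, were deprived of nitrogen for 2 days and then treated for 3 h with abscisic acid (ABA, 5 µM), a hormone of drought and salt stress. The group named 0N+ABA (3 samples) received 2 mM potassium chloride and the group named 2N+ABA (3 samples) received 2 mM potassium nitrate. All samples are of roots, lost the endosperm 3 days after germination and received ABA, so no effect of ABA can be read from these groups, and an effect of nitrate cannot be told apart from one of the chloride it replaced. Groups without ABA were not analysed here. The medium in the labels lists no ammonium salt.

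Ammonium transporters are membrane proteins of the AMT/MEP/Rh family that assemble as trimers and move ammonium into cells. In plants the AMT1 proteins are the main high-affinity carriers of ammonium into roots, while the AMT2 and AMT3 proteins of cereals belong to a separate branch closer to the MEP proteins of microbes. In Arabidopsis, AMT1 transcripts accumulate under nitrogen shortage, and the kinase CIPK23 phosphorylates AMT1 proteins and lowers their activity. Ammonium that enters a root, or that is made there from nitrate by nitrate and nitrite reductase, is built into glutamine and glutamate by glutamine synthetase and glutamate synthase.

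The libraries held between 16907317 and 17735564 estimated counts. Library 0N+ABA replicate 2 stood apart. On the first principal component of log2 CPM (42.1% of the variance) it lay at -1.28, between the other 0N+ABA libraries (-63.8 and -74.1) and the 2N+ABA libraries (38.8 to 59.9). On the second component (25.1%) it lay apart from all others, at -79.0. The other 0N+ABA libraries were at 13.9 and 12.5 there, and the 2N+ABA libraries at -17.7 to 47.9. The fold changes of the tested members are therefore also given without 0N+ABA replicate 2. Casparian strip membrane proteins, which mark the root endodermis, were listed with 7 genes, 1 of them at 0 in all libraries. Their summed TPM (transcripts scaled for gene length and to one total per library) was 117, 198 and 118 in replicates 1, 2 and 3 of 0N+ABA. It was 158 to 191 in 2N+ABA. The label of leaf tissue that the samples also carry was checked with 17 genes for the small subunit of Rubisco, 6 of them at 0 in all libraries, whose summed TPM was 27.7 to 50.9 in 0N+ABA and 12.5 to 48.2 in 2N+ABA. The 69 genes for chlorophyll a-b binding proteins, 15 of them at 0, summed to 82.0 to 94.2 TPM in 0N+ABA and 49.2 to 89.2 TPM in 2N+ABA. The part of these markers in the results was not tested.

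Transcripts of 2 AMT3 genes fell with nitrate, and no gene of the AMT1 or AMT2 type passed by edgeR with all libraries, while DESeq2 called 1 AMT1 gene higher. Of the 12 tested genes, 0 rose and 2 fell at an adjusted p under 0.05 by edgeR's quasi-likelihood test, against 1.67% of all tested genes that rose and 0.579% that fell. The 2 that fell are the chromosome 5D and 5B genes matched to ammonium transporter 3 member 2. The family was chosen with earlier results of these data known. DESeq2 called 1 rise and 3 falls, with 2.82% of all genes rising and 1.38% falling. With limma-voom there were 0 rises and 2 falls, against 1.57% and 0.486%, and the 5B gene was only just under the threshold (limma-voom adjusted p = 0.0498). At an unadjusted p under 0.05, 2 of the 12 were higher and 3 lower, against 8.62% and 7.77% of all tested genes. The samples of the groups did not overlap in CPM for 2 genes higher and 3 genes lower with nitrate, against 11.3% and 10.8% of all tested genes. In bulk roots, fewer cells of a type and less RNA per cell cannot be told apart. The median log2 fold change was 0.29 for the 6 AMT1 genes, -0.40 for the 2 AMT2 genes and -1.10 for the 4 AMT3 genes, and -0.02 over all tested genes.

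**Figure D1:**
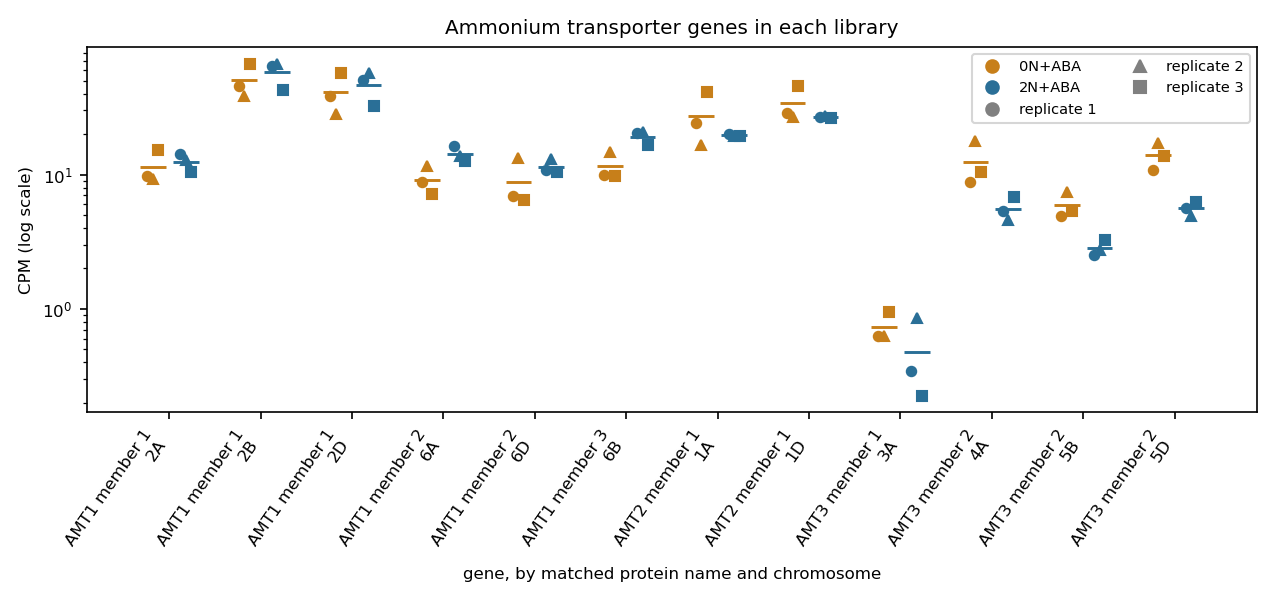
Expression of the 12 tested ammonium transporter genes in each library, in CPM (counts scaled to library size, log axis), with each gene named by its matched protein and chromosome. Points are libraries (circle, triangle and square for replicates 1, 2 and 3) and bars are group means. The 3 genes for AMT3 member 2 have every 0N+ABA library above every 2N+ABA library, from 10.8 to 17.1 CPM against 4.94 to 6.26 CPM for the 5D gene.

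Ammonium transporter 3 member 2 was matched by 3 genes, on chromosomes 4A, 5B and 5D. The 5D gene, TraesCS5D02G519400, had 10.8, 17.1 and 13.8 CPM in 0N+ABA replicates 1, 2 and 3 and 5.66, 4.94 and 6.26 CPM in the 2N+ABA replicates. The lowest sample without nitrate was above the highest with nitrate, and replicate 2 was the highest of the 0N+ABA samples. Means were 13.9 ± 3.17 and 5.62 ± 0.658 CPM (SD, n = 3), a 2.47-fold higher fitted level without nitrate (log2 fold change -1.30, SE 0.186, 95% interval -1.73 to -0.88, edgeR adjusted p = 0.0126). Without 0N+ABA replicate 2 the log2 fold change was -1.12 (edgeR adjusted p = 0.00531). When replicate 3 of 0N+ABA was left out, the value was -1.31 and no longer passed (edgeR adjusted p = 0.053). The same held for replicate 1 of 2N+ABA (-1.31, edgeR adjusted p = 0.0805) and for replicate 2 of 2N+ABA (-1.22, edgeR adjusted p = 0.0543).

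The 5B gene, TraesCS5B02G520200, was the least abundant of these copies. It had 4.93, 7.44 and 5.37 CPM in 0N+ABA and 2.52, 2.74 and 3.27 CPM in 2N+ABA. Again the groups did not overlap and replicate 2 was the highest without nitrate. The log2 fold change was -1.05 (SE 0.203, 95% interval -1.52 to -0.59, edgeR adjusted p = 0.0391), from 5.91 ± 1.34 to 2.84 ± 0.385 CPM (SD, n = 3). It was -0.85 without 0N+ABA replicate 2 (edgeR adjusted p = 0.0254). The gene no longer passed when any other library was left out, with edgeR adjusted p = 0.0677 and 0.0932 for replicates 1 and 3 of 0N+ABA and 0.17, 0.128 and 0.0959 for replicates 1, 2 and 3 of 2N+ABA. With the replicate number as a block the 5B gene had an adjusted p of 0.0761 by edgeR and the 5D gene 0.042. On log2 TPM values with limma the 5B gene did not pass (adjusted p = 0.0707) and the 5D gene did (adjusted p = 0.0353).

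The 4A gene, TraesCS4A02G352900, had 8.84, 17.8 and 10.5 CPM in 0N+ABA and 5.32, 4.57 and 6.82 CPM in 2N+ABA. Its groups did not overlap either, and replicate 2 was again the highest of its group, at 2.01 times the lowest. It did not pass by edgeR (log2 fold change -1.15, SE 0.273, 95% interval -1.77 to -0.53, adjusted p = 0.0757) and passed by DESeq2 (adjusted p = 0.0037) and by edgeR with no filter on low counts (adjusted p = 0.0428). Without 0N+ABA replicate 2 the estimate was smaller, at -0.78, and passed (edgeR adjusted p = 0.0339), with a standard error of 0.184 in place of 0.273. Across the 5 other fits that each left out 1 library its edgeR adjusted p ran from 0.0828 to 0.258.

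The 3 copies had estimates in the same direction and similar proportions in both groups. The 4A gene made up 34.9% to 41.5% of their summed TPM, the 5B gene 17.2% to 21.7% and the 5D gene 39.0% to 47.4% over the 6 libraries, and for each copy the ranges of the groups overlapped. Copies of this kind can be near-identical, and how the counting divided reads among them is not given in the sources used here. Summed before the fit, they had 24.5, 42.4 and 29.7 CPM in 0N+ABA and 13.5, 12.3 and 16.3 CPM in 2N+ABA, with a log2 fold change of -1.20 (SE 0.207, 95% interval -1.67 to -0.72). This sum does not depend on the division of reads among the copies, and its interval is not adjusted for the number of genes tested.

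**Figure D2:**
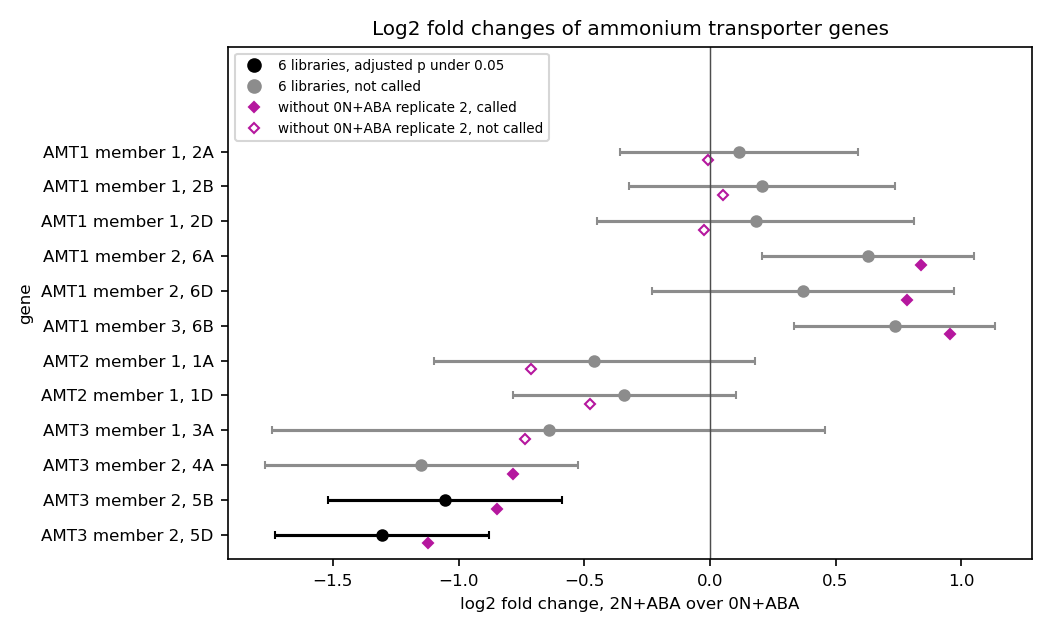
Log2 fold changes of the 12 tested genes, 2N+ABA over 0N+ABA, with 95% intervals from edgeR. Black circles passed at an adjusted p under 0.05, grey ones did not, and diamonds give the fit without 0N+ABA replicate 2 (filled where called). The 5B and 5D genes for AMT3 member 2 are called with all libraries, and without that replicate 6 genes are called, 3 of them downward and 3 upward.

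The other AMT3 genes were near the limit of detection. Ammonium transporter 3 member 1 was matched by 4 genes, of which the 3A gene TraesCS3A02G381600 was tested. It had 10.6, 10.9 and 15.8 estimated counts in 0N+ABA and 6, 13.9 and 4 in 2N+ABA, and the groups overlapped. Its log2 fold change was -0.64 with a wide 95% interval of -1.74 to 0.46 (edgeR adjusted p = 0.571), and it was -0.74 without 0N+ABA replicate 2. The 3B gene TraesCS3B02G414300 and the 3D gene TraesCS3D02G374800 had totals of 3.24 and 2.56 estimated counts over all 6 libraries, and the 5D gene TraesCS5D02G398200 had 0. The gene for ammonium transporter 3 member 3, TraesCS5B02G393200 on 5B, had a total of 2. A count of 0 in a library allows a level of up to 0.169 to 0.183 CPM, taken as 3 counts and covering counting error only. Changes in these genes were not detectable at this depth.

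The AMT1 genes carried 3 protein names. Ammonium transporter 1 member 1 was matched by tested genes on 2A, 2B and 2D, of which 2D and 2B had the highest TPM of the family in both groups. The 2D gene, TraesCS2D02G362900, had 38.2, 28.2 and 57.2 CPM in 0N+ABA and 50.6, 57.0 and 32.6 CPM in 2N+ABA. The lowest and the highest of its 6 values were both in 0N+ABA, so the groups overlapped fully. Its log2 fold change was 0.18 (95% interval -0.45 to 0.81, edgeR adjusted p = 0.803), an interval that includes both signs. The 2B gene TraesCS2B02G383600 had 45.8, 38.7 and 66.5 CPM without nitrate and 64.7, 67.0 and 42.6 CPM with it (log2 fold change 0.21, 95% interval -0.32 to 0.74, edgeR adjusted p = 0.725). The 2A gene TraesCS2A02G365000, at 9.33 to 15.3 CPM in 0N+ABA and 10.4 to 14.1 CPM in 2N+ABA, gave 0.12 (95% interval -0.36 to 0.59, edgeR adjusted p = 0.836). Without 0N+ABA replicate 2 these 3 values were -0.02 for 2D, 0.05 for 2B and -0.01 for 2A.

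In each of these 3 genes, 0N+ABA replicate 3 was the highest and replicate 2 the lowest of its group, and 2N+ABA replicate 3 the lowest of the nitrate group. Shares of the copies in their summed TPM varied little over the libraries, with 11.6% to 15.3% for 2A, 35.7% to 38.5% for 2B and 46.2% to 51.6% for 2D. The fourth gene of this name, TraesCS2B02G383500, carries the ID next to that of the abundant 2B gene. It had a total of 8 estimated counts over the 6 libraries and was not tested.

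The other AMT1 genes lie on the chromosomes of group 6, and their values were on average higher with nitrate. In rice, AMT1 member 2 is known as a root transporter whose transcript is induced by ammonium, and member 3 as one raised under nitrogen shortage. The wheat genes on 6A, 6B and 6D may be copies of a single ancestral gene that were matched to different rice names, so these rice roles may not carry over by name. The gene for ammonium transporter 1 member 3, TraesCS6B02G254800 on 6B, had 9.98, 14.7 and 9.79 CPM in 0N+ABA and 20.2, 20.6 and 16.5 CPM in 2N+ABA. Every sample with nitrate was above every sample without. The log2 fold change was 0.74 (SE 0.175, 95% interval 0.34 to 1.14), and it did not pass by edgeR (adjusted p = 0.0766) but passed by DESeq2 (adjusted p = 0.0174). Without 0N+ABA replicate 2 it was 0.96 and passed (edgeR adjusted p = 0.00494).

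The 6A gene TraesCS6A02G226800, matched to ammonium transporter 1 member 2, had 8.72, 11.6 and 7.13 CPM in 0N+ABA and 16.2, 13.7 and 12.5 CPM in 2N+ABA, also without overlap. It gave a log2 fold change of 0.63 (SE 0.185, 95% interval 0.21 to 1.05, edgeR adjusted p = 0.136). The 6D gene TraesCS6D02G208200, with the same protein name, had 6.89, 13.2 and 6.43 CPM without nitrate and 10.8, 13.1 and 10.4 CPM with it. Here 0N+ABA replicate 2 was the highest of all 6 samples, while the other 0N+ABA samples lay below every 2N+ABA sample. The estimate was 0.37 (SE 0.262, 95% interval -0.23 to 0.97, edgeR adjusted p = 0.546). Leaving that library out, the 6A and 6D genes gave 0.84 and 0.78 and both passed (edgeR adjusted p = 0.0151 and 0.0154).

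Leaving out 0N+ABA replicate 2 therefore turned the family's count from 0 rises and 2 falls into 3 rises and 3 falls by edgeR, where 5.19% of all tested genes rose and 3.19% fell. The 3 rises were the group 6 AMT1 genes and the 3 falls the genes for AMT3 member 2. In the other fits without 1 library the family had 0 rises by edgeR, against 0.601% and 0.636% of all genes without replicates 1 and 3 of 0N+ABA and 0.456%, 0.758% and 0.658% without replicates 1, 2 and 3 of 2N+ABA. In the same order of fits it had 1, 0, 0, 0 and 1 falls, against 0.175%, 0.155%, 0.0581%, 0.222% and 0.111% of all genes, and each of these falls was of the 5D gene. With the replicate block it had 0 rises and 1 fall, against 1.09% and 0.251%. Summed before the fit, the group 6 AMT1 genes had 25.6, 39.3 and 23.3 CPM in 0N+ABA and 47.2, 47.5 and 39.4 CPM in 2N+ABA, with a log2 fold change of 0.60 (SE 0.195, 95% interval 0.16 to 1.05). That interval too is unadjusted, and it is not a call. The sum in 0N+ABA replicate 2 lay just below the lowest sum in 2N+ABA.

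**Figure D3:**
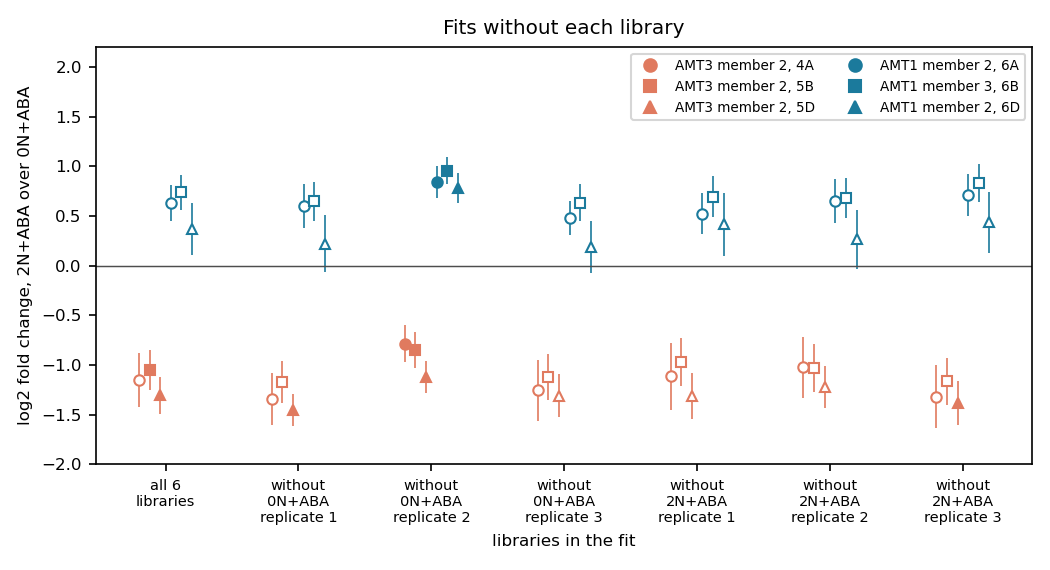
Log2 fold changes (2N+ABA over 0N+ABA, with standard errors) of the 3 genes for AMT3 member 2 and the 3 AMT1 genes of chromosome group 6, fitted with all 6 libraries and without each library in turn. Filled symbols passed at an adjusted p under 0.05 by edgeR. Values of the AMT3 genes stay below 0 and those of the AMT1 genes above 0 in all 7 fits, while the number of filled symbols is largest without 0N+ABA replicate 2.

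AMT2 transporters had 2 tested genes, both matched to ammonium transporter 2 member 1. The 1D gene TraesCS1D02G296600 had 28.8, 26.8 and 46.0 CPM in 0N+ABA and 26.7, 27.3 and 26.3 CPM in 2N+ABA. The 1A gene TraesCS1A02G295300 had 24.1, 16.5 and 40.9 CPM in 0N+ABA and 20.2, 19.5 and 19.5 CPM in 2N+ABA. Samples with nitrate were close together, with the highest 1.04 times the lowest in both genes, while those without nitrate spread 1.71-fold and 2.48-fold with replicate 3 the highest. The log2 fold changes of -0.34 (95% interval -0.78 to 0.10) and -0.46 (95% interval -1.10 to 0.18) did not pass (edgeR adjusted p = 0.44 and 0.471). Without 0N+ABA replicate 2 they were -0.48 and -0.71 (edgeR adjusted p = 0.138 and 0.0541), and without 0N+ABA replicate 3 they were -0.06 and -0.04. The 3 genes matched to ammonium transporter 2 member 3, TraesCS3A02G350800, TraesCS3B02G383400 and TraesCS3D02G344800, had between 1 and 9 estimated counts in every library and were not tested.

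**Figure D4:**
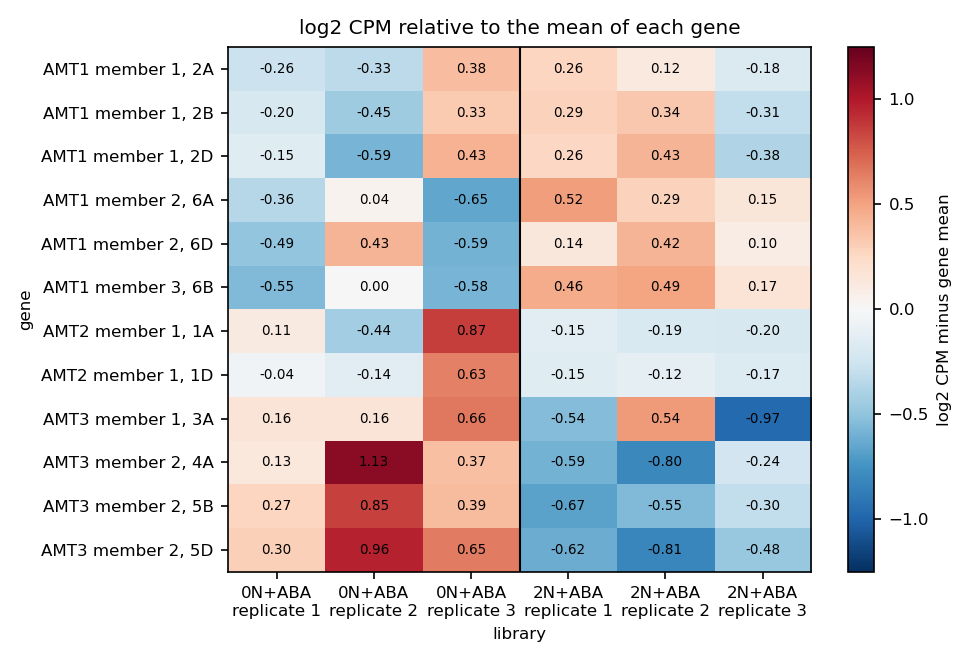
Log2 CPM of each tested gene minus its mean over the 6 libraries (color and printed value), with genes in rows and libraries in columns. In 0N+ABA replicate 2 the AMT3 member 2 genes stand at 0.85 to 1.13 and the AMT1 member 1 genes at -0.59 to -0.33, and in 0N+ABA replicate 3 the AMT2 member 1 genes stand at 0.63 and 0.87.

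The members differed among the samples of a group as well as between groups. Copies with the same protein name shared their highest and lowest samples in 0N+ABA, but not always in 2N+ABA. For AMT1 member 1 the highest 2N+ABA sample was replicate 1 for the 2A gene and replicate 2 for the 2B and 2D genes. In 0N+ABA the samples ordered the genes for AMT1 member 1 and AMT2 member 1 with replicate 3 highest and replicate 2 lowest, and the group 6 AMT1 genes the other way round. The genes for AMT3 member 2 were highest in replicate 2 and lowest in replicate 1. Nothing in the labels says whether the 3 samples were grown apart, so the p-values rest on a spread among samples that could be technical.

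On the per-length scale of the deposited TPM values, levels of different genes can be set side by side. Without nitrate the 2D gene for AMT1 member 1 was highest (32.9 ± 11.9 TPM, SD, n = 3), followed by the 2B gene of that name, the 1D and 1A genes for AMT2 member 1 (16.9 ± 7.78 TPM for the latter, SD, n = 3) and, in rank 5 of 12, the 5D gene for AMT3 member 2 (9.48 ± 2.08 TPM). With nitrate the first 4 genes were in the same order, while the 5D gene was at rank 9 with 3.72 ± 0.541 TPM and the 6B gene for AMT1 member 3 had gone from rank 9 (6.97 ± 1.59 TPM) to rank 5 (11.2 ± 1.13 TPM). In 0N+ABA the TPM ranges of all neighbors in this order overlapped, except those of the last pair (5B and 3A), so that order is not resolved beyond the spread. In 2N+ABA the TPM ranges did not overlap between 2B and 1D, 1D and 1A, 2A and 6D, 6D and 5D, 4A and 5B, or 5B and 3A, and those of the other neighbors did. By mean TPM over all libraries, the 12 tested members lay above between 33.2% and 93.7% of all listed genes, the 2D gene highest and the 3A gene for AMT3 member 1 lowest.

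Summed over all 20 genes, the family had 131, 131 and 184 TPM in 0N+ABA and 152, 147 and 122 TPM in 2N+ABA, and the groups overlapped. AMT3 genes held 13.0%, 21.7% and 11.2% of the family's TPM without nitrate and 5.98%, 5.57% and 9.04% with it. AMT1 genes held 60.0%, 56.4% and 57.7% without nitrate and 74.0%, 75.1% and 66.0% with it. For both types the groups did not overlap in share, and the AMT3 share was highest in 0N+ABA replicate 2. A share also changes when the other types change. The summed TPM of the AMT1 genes did overlap, at 74.1 to 106 TPM without nitrate and 80.2 to 112 TPM with it. AMT2 shares overlapped, at 21.9% to 31.1% and 19.4% to 24.9%. No test was made of these shares.

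**Figure D5:**
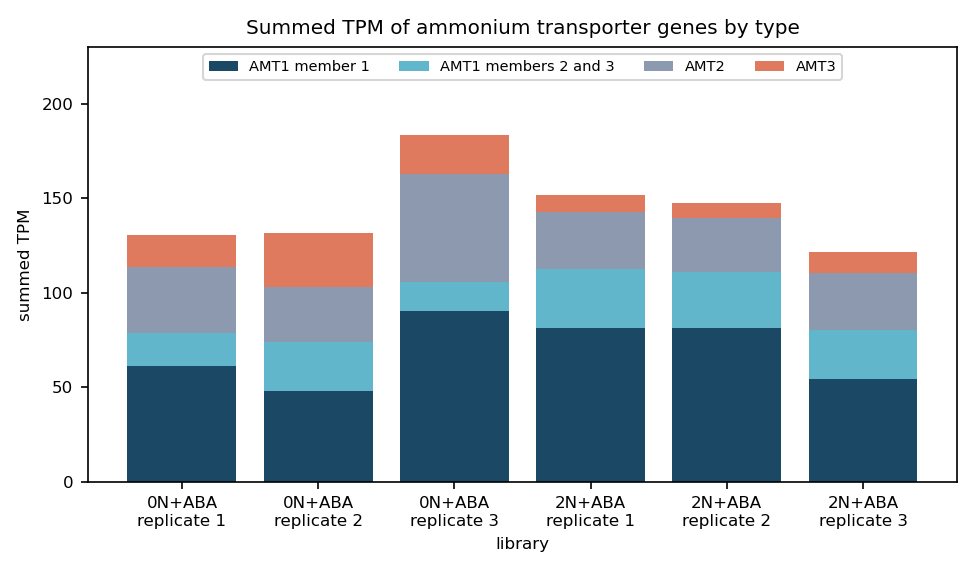
Summed TPM of the ammonium transporter genes in each library, stacked by type, with AMT1 split into member 1 and members 2 and 3. The AMT3 segment averages 22.1 ± 5.90 TPM in 0N+ABA and 9.43 ± 1.41 TPM in 2N+ABA (SD, n = 3), while the total is 131 to 184 TPM and 122 to 152 TPM.

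To ask which other genes had values like those of the AMT3 genes, the distance between patterns was measured as the root mean square difference of log2 CPM, each gene relative to its own mean, over the 6 samples. Among 39705 described genes with a mean of at least 1 CPM, the nearest to the 5D gene TraesCS5D02G519400 was an ABC transporter of the G family, TraesCS7D02G386500, at a distance of 0.0985. It went from 22.8 ± 4.42 to 10.1 ± 1.09 CPM (SD, n = 3). Next came genes for a crocetin glucosyltransferase (TraesCS5D02G140900, 0.114), an F-box protein (TraesCS3B02G094500, 0.129), a flavonoid glucosyltransferase (TraesCS7B02G312000, 0.144) and a glucan endo-1,3-beta-glucosidase (TraesCS3B02G278400, 0.147). Its own copies on 5B and 4A followed at 0.173 and 0.179, with 14 and 15 of the 39705 genes nearer, and the next member, the 1D gene for AMT2, at 0.594 with 7318 genes nearer.

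For the 5B gene TraesCS5B02G520200 the nearest genes encoded glutathione S-transferase 4 (TraesCS1A02G102800, 0.0828), a CONSTANS-like zinc finger protein (TraesCS6D02G140900, 0.0855), NLP1, a transcription factor of the family that responds to nitrate (TraesCS5A02G349500, 0.106), the same ABC transporter (0.106) and a carboxylesterase (TraesCS5D02G249400, 0.118). With 6 samples such nearness is a description, and it includes the group difference and the high values of 0N+ABA replicate 2 alike.

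Genes around ammonium were read from the same fit in 9 lists by protein name. The lists were chosen with earlier results of these data known, so their shares are a description. Of their 90 tested members 13 rose and 1 fell by edgeR, or 14.4% and 1.11%, against 1.67% and 0.579% of all tested genes, with a median log2 fold change of 0.12 against -0.02 over all genes. There were 24 rises and 3 falls without 0N+ABA replicate 2, where 5.19% of all genes rose and 3.19% fell. Of the 13 rises, 12 were in the steps that make and bind ammonium. By protein name they were the 3 genes each for nitrite reductase, chloroplastic leaf glutamine synthetase, cytosolic glutamine synthetase 1-2 and ferredoxin-dependent glutamate synthase. Genes of the same name may be copies that share reads, so the 13 rises are not 13 independent changes. All 3 nitrite reductase genes, which release ammonium from nitrite, rose by 4.19 to 4.62 on the log2 scale, and 6 of 11 glutamine synthetase genes and 3 of 6 glutamate synthase genes rose. All 6 glutamate synthase genes rose by DESeq2, where 2.82% of all genes rose. The same held by edgeR without replicate 2 of 0N+ABA (5.19% of all genes) or replicate 3 of 2N+ABA (0.658%). It also held by edgeR with no filter, where 1152 genes rose in all. That fit tests a larger set of genes, so its total is not comparable with the shares given here. With scaling by library size alone 5 rose, where 840 of the 53862 tested genes rose. For glutamine synthetase the count was 9 without 0N+ABA replicate 2. In these 3 lists 0 genes fell by edgeR, DESeq2 and limma-voom, and 1 glutamine synthetase gene was lower at an unadjusted p under 0.05. Asparagine synthetases store nitrogen as asparagine. Of 16 tested genes whose names begin with these words, 3 are named only as proteins containing the domain. By edgeR 1 rose, TraesCS3A02G077100 (0.443 ± 0.0820 to 2.17 ± 0.772 CPM, SD, n = 3, edgeR adjusted p = 0.0174). It did not pass when replicate 1 or 3 of 0N+ABA or replicate 3 of 2N+ABA was left out. DESeq2 called 2 rises, of this gene and of TraesCS4A02G109900 (383 ± 99.3 to 648 ± 89.7 CPM, SD, n = 3, DESeq2 adjusted p = 0.00984, edgeR adjusted p = 0.0983). Of 11 glutamate dehydrogenase genes, which can release or bind ammonium, 0 rose or fell by edgeR, DESeq2 and limma-voom, and 0 had an unadjusted p under 0.05.

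The gene that fell encodes CIPK23, the kinase known from Arabidopsis to inhibit AMT1 proteins. TraesCS2A02G251800 on 2A went from 45.0 ± 1.89 to 28.9 ± 2.74 CPM (SD, n = 3; log2 fold change -0.64, SE 0.107, edgeR adjusted p = 0.0239). The 2D gene TraesCS2D02G252600 had a log2 fold change of -0.56 (edgeR adjusted p = 0.0892) and the 2B gene TraesCS2B02G271700 of -0.31 (edgeR adjusted p = 0.283). DESeq2 called 2 of these 3 lower, where 1.38% of all genes fell. Of the fits that each left out 1 library, only that without 0N+ABA replicate 2 kept the 2A call. There 2 of the 3 genes fell, in a fit where 3.19% of all genes fell.

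Urea is another source of ammonium, taken up by the DUR3 symporter and split by urease. The list held DUR3, urease and the accessory proteins of urease, with 14 tested genes. Of these, 0 rose or fell by edgeR, DESeq2 and limma-voom. At an unadjusted p under 0.05, 2 were lower, where 7.77% of all genes were. Both are among the 3 DUR3 genes, whose log2 fold changes ran from -0.91 to 0.19. They are TraesCS1B02G213100 with 3.67 ± 0.870 and 1.95 ± 0.321 CPM (SD, n = 3) and TraesCS1A02G198300 with 4.24 ± 0.595 and 2.85 ± 0.391 CPM, without and with nitrate (edgeR adjusted p = 0.0975 and 0.164). The first passed without 0N+ABA replicate 2 (edgeR adjusted p = 0.0167). Of 8 genes for TIP2 aquaporins, tonoplast channels that also pass ammonia, 0 rose or fell by edgeR and limma-voom. DESeq2 called 1 rise, where 2.82% of all genes rose. At an unadjusted p under 0.05, 2 were higher, where 8.62% of all genes were. Leaving out 0N+ABA replicate 2 gave 4 rises among the 8, in a fit where 5.19% of all genes rose. Of 18 genes for indeterminate-domain proteins, a zinc finger family of which a rice member binds AMT1 promoters, 0 rose or fell by edgeR, DESeq2 and limma-voom, and 4 were higher at an unadjusted p under 0.05, against the same 8.62% of all genes, with a list median of 0.12.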

How the data were processed

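Poly(A)-selected, randomly primed RNA-seq libraries of roots were made by the submitters, per the labels' protocols. HISAT and Bowtie2 are named per the submitters' processing notes, while no counting tool, genome build or annotation is named there (not given in the sources used here). Values for each gene were supplied by the authors, who deposited estimated counts per gene and sample, without normalization, and TPM, FPKM and normalised counts (a signal scaled per sample), per the file headers. FPKM and the normalised counts were not used, nor were 2 columns of groups outside the 6 samples. Sample groups came from the titles. No gene ID was found in the reference gene table (0 matches), so chromosomes come from the IDs, and no sequence or coordinate is given.

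Estimated counts were rounded to whole numbers. The test was that of edgeR 4.0.16, run in R 4.3.3 (filterByExpr, TMM, glmQLFit, glmQLFTest, no covariate), 2N+ABA against 0N+ABA. The filter kept 53862 genes with 99.61% of the counts, with Benjamini-Hochberg adjustment of p-values over them and a threshold of 0.05. CPM values use TMM factors, standard errors come from the F statistic, and 95% intervals from the same fit. DESeq2 1.42.0, limma 3.58.1 (voom, and log2(TPM + 0.1) with a trend for genes with a mean of at least 0.1 TPM), other scaling, no filter, a replicate block and fits without each library were alternatives. The script was tested on simulated data, where it recovered 44 of 100 changes of 2-fold and 88 of 100 of 4-fold. It made 13 false calls over the 53862 genes, beside these 44 and 88 true ones. A gene that did not pass may therefore still have changed, and one that passed may not have. Changed genes were drawn only from those with a mean of at least 1 CPM, so recovery below that level was not tested. No pair of replicates agreed within sampling noise, with a chi-square per gene of at least 3.92 where counting error alone gives about 1. Reads without molecular identifiers are not independent molecules.

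The members and lists were chosen with earlier results of these data known. Named genes are all members, in each list up to 4 genes ranked by p, and the 5 genes nearest in pattern to each of 2 members (prior count of 2 in log2 CPM). Patterns inside a name were matched at the start of a word, which left out folylpolyglutamate synthases. The markers for root cap matched 0 genes. Root hair markers (10 genes) summed to 73.3 to 78.8 TPM in 0N+ABA and 77.3 to 81.2 TPM in 2N+ABA, and root lectin and nicotianamine synthase genes (26 genes) to 77.5 to 109 and 78.2 to 96.8 TPM.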

Additional observations from a re-analysis of the deposited data

How the results depend on the processing

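The direction of the 12 tested genes was kept under the 15 alternatives, except for the 2A and 2D genes for AMT1 member 1, which gave -0.0059 and -0.023 without 0N+ABA replicate 2 and at most 0.381 and 0.493 (without 0N+ABA replicate 3). Of 898 higher and 312 lower genes among all tested, DESeq2 gave 1519 and 743 and the replicate block 588 and 135, and fits without 1 library gave 251 to 2852 and 32 to 1755. For ammonium transporters, DESeq2 gave 1 rise (0 in the main result) and the replicate block 1 fall (2 in the main result), and fits without 1 library gave 0 to 3 rises and 0 to 3 falls. In the ammonium-related lists, fits without 1 library gave 11 to 24 rises and 0 to 3 falls against 13 and 1, DESeq2 gave 2 falls and the replicate block 0. The cause was not tested. Same-numbered samples did not deviate together (correlations of 0.0757, -0.229 and -0.217 for numbers 1, 2 and 3). With 3 samples in each group, such values cannot decide whether same-numbered samples shared a batch, which the labels do not state. Of 180 alternative values for the 12 genes, 160 kept both their sign and their side of the threshold. Of the others, 10 lost a call, 8 gained one and 2 changed sign without being called. In the fits with summed copies, every gene of a sum carries the value of that sum. The call that the 4A gene for AMT3 member 2 gained with copies summed by protein name is therefore that of the sum. Summing copies by AMT type and chromosome group was chosen after seeing the data. Depth limited the 8 members that were not tested and the 3A gene for AMT3 member 1.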
